A study of Mus musculus with 10 samples.

Results

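The sarcomeric myosin heavy chain genes and the long noncoding RNA linc-MYH (2310065F04Rik), which lies among them, were followed through both array comparisons of the series. The members were taken by gene symbol from a list of 10 genes. The rule uses no measured value, but the list was drawn up with earlier results of these data known. Of the 10, 9 had a probe set of their own on the mouse gene array (Myh1, Myh2, Myh3, Myh4, Myh8, Myh13, Myh6, Myh7 and Myh7b), 1 probe set each and 0 of them shared with another gene, among 35556 probe sets in all. linc-MYH had none in the annotation used, so the knocked-down transcript was not analysed here and its level could not be used as a check of the label.

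Every array was made from mice whose strain the labels spell C56BL6N (C57Bl6 in the study's methods) and whose age they give as 8 weeks. In the tibialis anterior (TA), 2 arrays were labelled shlinc-MYH and 2 control. Those muscles had received 10 µg of plasmid by electroporation, expressing either a short hairpin RNA against linc-MYH or the control vector (a hairpin against LacZ, in the opposite leg, per the study's methods), and GFP-positive fibers were dissected 2 weeks later. In the gastrocnemius, 3 arrays were labelled cSix1 KO and 3 control. In cSix1 KO mice the floxed alleles are cut by a Cre recombinase driven from the human skeletal actin promoter, so the deletion is aimed at muscle fibers and other cells of the muscle keep the alleles. Per the study's methods, electroporated muscles of a condition came from different mice, but the sources used here do not tie each array to a mouse in either tissue. The p-values therefore measure the spread between these arrays, which may be technical.

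A muscle fiber takes its contraction speed largely from the myosin heavy chain that it makes. In adult mouse limb muscle Myh4 encodes the fastest form (IIB), Myh1 the IIX form, Myh2 the IIA form and Myh7 the slow form, while Myh3 (embryonic) and Myh8 (neonatal) are mainly made during development and regeneration. Myh13 encodes the form of extraocular muscle, Myh6 is best known as the alpha form of heart, and Myh7b encodes a slow-type relative. Myh3, Myh2, Myh1, Myh4, Myh8 and Myh13 stand in a row on chromosome 11, with linc-MYH between Myh3 and Myh2. Myh6 and Myh7 are a tandem pair on chromosome 14, and Myh7b is on chromosome 2.

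The windows around the annotated start sites, 250 bases before to 50 bases after, are shown for the cluster genes that the array results turn on, because the comparisons set these neighbors against each other. All 10 listed genes had such a window in the RefSeq table of build GRCm38.p6. In the first 4 sequences the capitals mark the longest run that Myh2, Myh1, Myh4 and Myh8 share on the same strand, which is 14 bases long.
Myh2 promoter window, chr11:67170777-67171076, plus strand: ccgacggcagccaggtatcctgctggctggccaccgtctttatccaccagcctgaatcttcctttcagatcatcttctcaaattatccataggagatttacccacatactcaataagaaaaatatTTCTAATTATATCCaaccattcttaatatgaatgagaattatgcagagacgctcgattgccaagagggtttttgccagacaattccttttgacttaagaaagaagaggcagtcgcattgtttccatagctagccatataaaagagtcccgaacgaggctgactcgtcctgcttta
Myh1 promoter window, chr11:67199852-67200151, plus strand: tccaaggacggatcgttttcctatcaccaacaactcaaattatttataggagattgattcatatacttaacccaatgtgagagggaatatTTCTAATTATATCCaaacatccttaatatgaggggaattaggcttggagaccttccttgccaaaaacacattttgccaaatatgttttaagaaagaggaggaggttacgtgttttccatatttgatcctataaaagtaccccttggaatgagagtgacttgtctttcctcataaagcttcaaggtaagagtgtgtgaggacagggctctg
Myh4 promoter window, chr11:67237562-67237861, plus strand: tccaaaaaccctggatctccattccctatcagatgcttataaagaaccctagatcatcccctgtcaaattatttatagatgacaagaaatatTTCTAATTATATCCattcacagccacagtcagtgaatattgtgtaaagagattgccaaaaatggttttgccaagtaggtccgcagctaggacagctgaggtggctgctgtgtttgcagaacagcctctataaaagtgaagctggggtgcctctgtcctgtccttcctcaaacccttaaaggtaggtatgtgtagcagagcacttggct
Myh8 promoter window, chr11:67276874-67277173, plus strand: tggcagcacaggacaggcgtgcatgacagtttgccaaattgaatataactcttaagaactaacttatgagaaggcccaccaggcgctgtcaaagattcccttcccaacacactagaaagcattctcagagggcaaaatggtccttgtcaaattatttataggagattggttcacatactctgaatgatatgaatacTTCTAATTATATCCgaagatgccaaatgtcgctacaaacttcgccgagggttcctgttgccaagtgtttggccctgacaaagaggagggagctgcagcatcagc

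The shared run TTCTAATTATATCC began 125 bases before the annotated start site of Myh2, 160 before that of Myh1, 158 before that of Myh4 and 54 before that of Myh8. On either strand it was found in 4 of 32851 mouse promoter windows, those of these 4 genes. The 3 adult fast genes Myh2, Myh1 and Myh4 shared a longer run of 20 bases around it, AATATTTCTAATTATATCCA. Myh1 and Myh8 shared another run, of 22 bases, TCAAATTATTTATAGGAGATTG, which was found in their 2 windows only. The run of letters describes the windows and names no bound factor.

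The windows of Myh3, the embryonic gene at the start of the cluster, of linc-MYH and of Myh7 did not hold the shared run. In Myh3 and linc-MYH the capitals mark the letters TATAAA on either strand. Myh7 has 2 windows in the table, of which the first is shown, and neither held these letters.
Myh3 promoter window, chr11:67078050-67078349, plus strand: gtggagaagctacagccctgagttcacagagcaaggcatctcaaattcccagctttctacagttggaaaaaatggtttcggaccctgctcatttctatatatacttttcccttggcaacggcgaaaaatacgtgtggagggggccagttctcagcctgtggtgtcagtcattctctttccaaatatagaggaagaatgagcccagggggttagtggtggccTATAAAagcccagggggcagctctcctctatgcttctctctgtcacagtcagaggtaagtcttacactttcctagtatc
linc-MYH (2310065F04Rik) promoter window, chr11:67120031-67120330, minus strand: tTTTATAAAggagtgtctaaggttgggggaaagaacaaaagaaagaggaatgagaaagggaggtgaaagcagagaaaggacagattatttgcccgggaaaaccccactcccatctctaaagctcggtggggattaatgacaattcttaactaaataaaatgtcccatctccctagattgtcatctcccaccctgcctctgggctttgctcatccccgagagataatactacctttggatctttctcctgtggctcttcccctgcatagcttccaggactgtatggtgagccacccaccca
Myh7 promoter window, chr14:54994577-54994876, minus strand: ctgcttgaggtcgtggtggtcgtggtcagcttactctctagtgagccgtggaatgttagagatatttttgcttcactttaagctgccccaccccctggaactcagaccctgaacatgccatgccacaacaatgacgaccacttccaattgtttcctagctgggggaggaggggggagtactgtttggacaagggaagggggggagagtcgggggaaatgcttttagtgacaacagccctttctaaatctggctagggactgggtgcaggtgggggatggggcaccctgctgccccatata

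The letters TATAAA, searched on both strands, were found in the windows of 7 of the 10 listed genes and in 13.6% of all windows. Their places differed. They began 29 bases before the start site in Myh3, 32 in Myh1 and 31 in Myh4, the last 2 with further matches upstream. In Myh8 they began 96 bases before it, and in linc-MYH 249 and 247. In Myh2 and Myh6 they began 10 bases and 1 base after it. Whether transcription starts at the annotated sites was not tested. These places therefore do not show that a gene lacks a TATA box near its true start. The E-box letters CANNTG, bound by factors of the MyoD family, were also in 7 of 10, against 72.3% of all windows. The letters CTANNNNTAG, only 1 form of the site bound by MEF2 factors, were in 0 of 10, against 3.69% of all windows. Other forms were not searched. The windows of Myh1, Myh4 and Myh8 held TTATTTATAG, which has T in place of the first C and so was not counted. The search therefore does not show that these windows lack a MEF2 site. No match says only that these exact letters were not in these 300 bases.

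Myh6, Myh7 and Myh7b each carry a microRNA within the annotated gene. The mature forms are printed to show which of them share a seed, which is bases 2 to 8 and is given in capitals.
mmu-miR-208a-3p, chr14:54949072-54949093, minus strand: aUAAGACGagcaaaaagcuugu
mmu-miR-208b-3p, chr14:54975710-54975731, minus strand: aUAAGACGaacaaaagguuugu
mmu-miR-499-5p, chr2:155622893-155622913, plus strand: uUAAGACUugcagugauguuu
The microRNAs of Myh6 and Myh7 had the same seed, UAAGACG, and were identical at 19 of 22 positions. That of Myh7b had the seed UAAGACU, which differs from it in the last base.

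Array values are given as log2 signal after robust multi-array averaging (RMA), so a difference of 1 is a doubling of signal. Array medians lay between 5.09 and 5.14 in TA and between 6.60 and 6.67 in gastrocnemius, so levels were not compared between the tissues. Signals of different genes come from different probes and were not ranked against each other. A probe set was called changed where limma's adjusted p over all 35556 probe sets was under 0.05. As a check of tissue, 8 genes of skeletal muscle fibers, among them the fast-fiber genes Pvalb and Tnnt3, had mean signals per array of 12.06 to 12.07 in shlinc-MYH and 12.07 to 12.14 in control TA. In gastrocnemius the same genes gave 13.49 to 13.55 in cSix1 KO and 13.62 to 13.66 in control arrays, with a median log2 fold change of -0.098. Of the 8, 5 were below all controls on all cSix1 KO arrays (8.5% of all probe sets). None was called, beside 0.18% of all probe sets called higher and 0.132% lower.

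In TA, the question was whether the myosin genes around linc-MYH differed when it was targeted. The embryonic and neonatal genes had the higher signals in the shlinc-MYH arrays, about 3.51-fold for Myh3 and 3.06-fold for Myh8, and Myh4 had a lower signal. None of these passed the adjusted threshold. With limma, 0 of 9 myosin genes were called higher and 0 lower, beside 0% of all probe sets called higher and 0% called lower. At an unadjusted p under 0.05, 2 of 9 myosin genes were higher (3.3% of all probe sets) and 0 of 9 lower (3.85%).

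**Figure D1:**
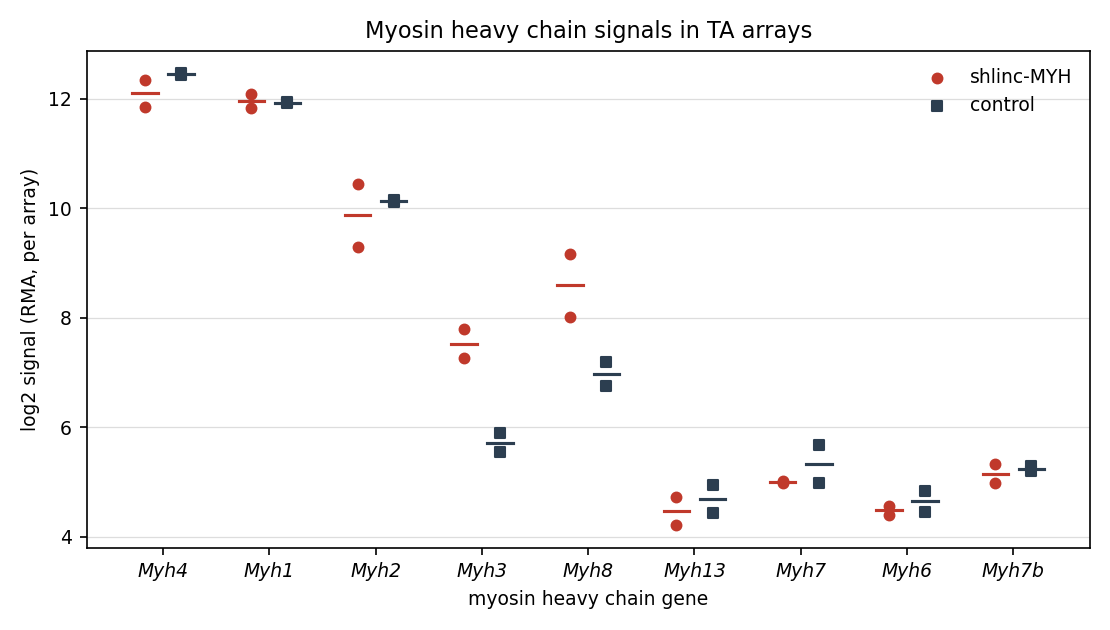
Log2 signal of each myosin heavy chain gene on every TA array, with shlinc-MYH arrays as red circles and control arrays as dark squares, and group means as short lines. For Myh3 and Myh8 the red circles are above both dark squares, and for Myh4 they are below. Heights of different genes come from different probes and are not comparable.

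Myh3 gave 7.80 and 7.26 in the shlinc-MYH arrays, against 5.89 and 5.55 in control TA. The groups did not overlap, and the gap between them was wider than the range within either. The log2 fold change was 1.81 ± 0.24 (SE), with a 95% confidence interval of 1.19 to 2.43 and an adjusted p of 0.589 (limma). The interval covers 1 gene, while the adjusted p allows for all 35556.

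Myh8 gave 9.17 and 8.01 in the shlinc-MYH arrays, against 7.20 and 6.75 in control TA. Both shlinc-MYH arrays were above both control arrays, and shlinc-MYH replicate 1 was the highest for Myh3 and for Myh8. The log2 fold change was 1.61 ± 0.42 (SE, adjusted p = 0.686, limma). In bulk samples, fewer or more fibers of a type and less or more RNA per fiber cannot be told apart.

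Myh4, the IIB gene, gave 12.35 and 11.85 in the shlinc-MYH arrays, against 12.46 and 12.42 in control TA. Both shlinc-MYH arrays were below both control arrays, but by only 0.07 at the nearest point, and replicate 2 carried most of the difference. The log2 fold change was -0.34 ± 0.20 (SE), with an interval of -0.86 to 0.18 and an adjusted p of 0.768 (limma). Without shlinc-MYH replicate 2 it was -0.09.

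The other 2 adult fast genes overlapped between the groups. Myh1, the IIX gene, gave 11.82 and 12.09 in shlinc-MYH and 11.93 and 11.93 in control TA, a log2 fold change of 0.03 with an interval of -0.35 to 0.40. Myh2, the IIA gene, gave 9.29 and 10.45 in shlinc-MYH and 10.11 and 10.15 in control TA. Its 2 shlinc-MYH arrays lay on opposite sides of the controls, more than 1 log2 unit apart, so its log2 fold change of -0.26 had an interval of -1.31 to 0.79.

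Myh7, the slow gene, gave 5.02 and 4.98 in shlinc-MYH and 5.68 and 4.98 in control TA. These signals were near the array median, and the higher of the control arrays set the difference of -0.33 ± 0.26 (SE). Myh6, Myh7b and Myh13 gave log2 fold changes of -0.16, -0.09 and -0.22, with overlapping groups, and no signal above 5.32 on any TA array. Over the 9 genes, both shlinc-MYH arrays were above both controls for 2, beside 15.4% of all probe sets, and below both for 1, beside 22.1%. The median log2 fold change of the 9 was -0.16, against -0.03 over all probe sets.

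In gastrocnemius, the question was which myosin genes differed between cSix1 KO and control muscle. The slow gene Myh7 rose 2.22-fold and Myh6 rose 1.71-fold in cSix1 KO muscle, and both passed the adjusted threshold. Myh8 and Myh7b had log2 fold changes of 0.83 and 0.49 without passing it, and the adult fast genes Myh4, Myh1 and Myh2 had -0.12, 0.13 and 0.05. With limma, 2 of 9 myosin genes were called higher, beside 0.18% of all probe sets, and 0 of 9 lower, beside 0.132%. Where the fit was limited to 1 probe set per gene (19938 genes), 4 of 9 were called higher, beside 0.908% of genes, with Myh7b (adjusted p = 0.0460) and Myh8 (adjusted p = 0.0483) added.

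**Figure D2:**
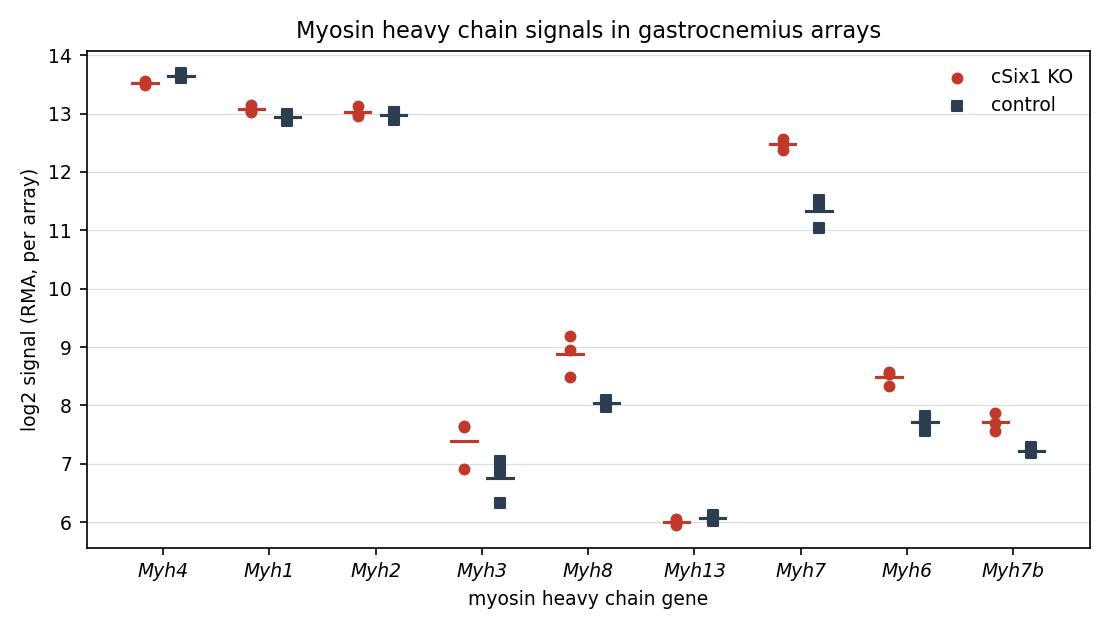
Log2 signal of each myosin heavy chain gene on every gastrocnemius array, with cSix1 KO arrays as red circles and control arrays as dark squares, and group means as short lines. All 3 cSix1 KO arrays lay above all 3 control arrays for Myh1, Myh8, Myh7, Myh6 and Myh7b and below them for Myh4. Heights of different genes come from different probes and are not comparable.

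Myh7 gave 12.48, 12.57 and 12.38 in the cSix1 KO arrays, against 11.51, 11.05 and 11.42 in control gastrocnemius. All 3 cSix1 KO arrays stood above all controls, and control replicate 2 was the lowest. The log2 fold change was 1.15 ± 0.13 (SE), with a 95% confidence interval of 0.84 to 1.46 and an adjusted p of 0.0385 (limma). Of all probe sets, 0.202% had a log2 fold change at least as high. The call was lost without any 1 of the arrays other than control replicate 2, with log2 fold changes of 1.01 to 1.24 over all alternatives.

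Myh6 gave 8.34, 8.57 and 8.54 in the cSix1 KO arrays, against 7.82, 7.56 and 7.75 in control gastrocnemius. The groups were apart on every array. The log2 fold change was 0.77 ± 0.10 (SE, adjusted p = 0.0486, limma), close to the threshold, and it was called in 4 of 14 alternative settings, against 7 of 14 for Myh7. The 4 cardiac markers Nppa, Tnni3, Myl7 and Actc1 had a median log2 fold change of 0.01. Of the 4, 0 were called, which is near the shares of all probe sets called higher (0.18%) and lower (0.132%). On all cSix1 KO arrays 1 of the 4 was below all controls, beside 8.5% of all probe sets, and 0 were above, beside 9.71%. Myosin genes resemble one another in sequence, and how far probes of one read RNA of another was not tested.

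Myh7b gave 7.55, 7.87 and 7.71 in the cSix1 KO arrays, against 7.20, 7.18 and 7.29 in control gastrocnemius. The groups did not overlap, with a log2 fold change of 0.49 ± 0.09 (SE, adjusted p = 0.118, limma). The probe sets of the microRNA hairpins Mir208a, within Myh6, and Mir499, within Myh7b, showed no such gap. Mir208a gave 4.46, 4.34 and 4.41 in cSix1 KO, against 4.41, 4.31 and 4.40 in control arrays. Mir499 gave 4.67, 4.75 and 4.53 in cSix1 KO, against 4.52, 4.38 and 4.66 in control arrays, and both sets of arrays overlapped. All of these hairpin signals were below the gastrocnemius array medians of 6.60 to 6.67. At such low signals a difference in the hairpins may go unseen, so whether they follow their host genes was not tested. Mir208b was not analysed here.

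Myh8 gave 9.18, 8.95 and 8.49 in the cSix1 KO arrays, against 8.10, 7.97 and 8.08 in control gastrocnemius. All cSix1 KO arrays were above the controls, with replicate 3 the closest to them. The log2 fold change was 0.83 ± 0.17 (SE, adjusted p = 0.131, limma). Myh3 gave 7.63, 7.64 and 6.92 in cSix1 KO, against 7.05, 6.33 and 6.87 in control arrays, so that cSix1 KO replicate 3 lay among the controls. Its log2 fold change was 0.64 ± 0.26 (SE, adjusted p = 0.399, limma).

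Myh4 gave 13.49, 13.55 and 13.53 in the cSix1 KO arrays, against 13.63, 13.60 and 13.69 in control gastrocnemius. All cSix1 KO arrays were lower, by a log2 fold change of -0.12 with an interval of -0.27 to 0.03 (adjusted p = 0.525, limma). Myh1 gave 13.16, 13.05 and 13.03 in cSix1 KO, against 12.87, 12.99 and 12.98 in control arrays, all above the controls, with a log2 fold change of 0.13 (interval -0.04 to 0.30). Myh2 overlapped, at 12.96, 13.13 and 13.00 in cSix1 KO and 13.02, 13.02 and 12.90 in control arrays. The interval for Myh2 was -0.13 to 0.23. In control arrays Myh4, Myh1 and Myh2 were above 99.8%, 99.5% and 99.5% of probe sets, and array maxima were 14.30 to 14.43. Whether signals this high follow differences in RNA in full was not tested.

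Over the 9 genes in gastrocnemius, all cSix1 KO arrays were above all controls for 5, beside 9.71% of all probe sets, and below for 1 (Myh4), beside 8.5%. At an unadjusted p under 0.05, 5 of 9 were higher (6.52% of all probe sets) and 0 of 9 lower (5.32%). The median log2 fold change of the 9 was 0.49, against 0.01 over all probe sets. Myh13, the extraocular gene, gave -0.06 with overlapping groups.

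The fold changes of the myosin genes were set against each other between the comparisons in 1 fit of all 10 arrays, in which 0 of 9 genes passed the adjusted threshold for a difference, beside 0.0366% of all probe sets. Myh7 had the widest difference, -1.48 on the log2 scale for TA minus gastrocnemius, with an interval of -2.12 to -0.83 and an adjusted p of 0.161 (limma). Myh6 differed by -0.94 (adjusted p = 0.189) and Myh3 by 1.17 (adjusted p = 0.367). The comparisons differ in muscle, in the cells taken and in the way the gene was targeted, and these cannot be told apart.

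**Figure D3:**
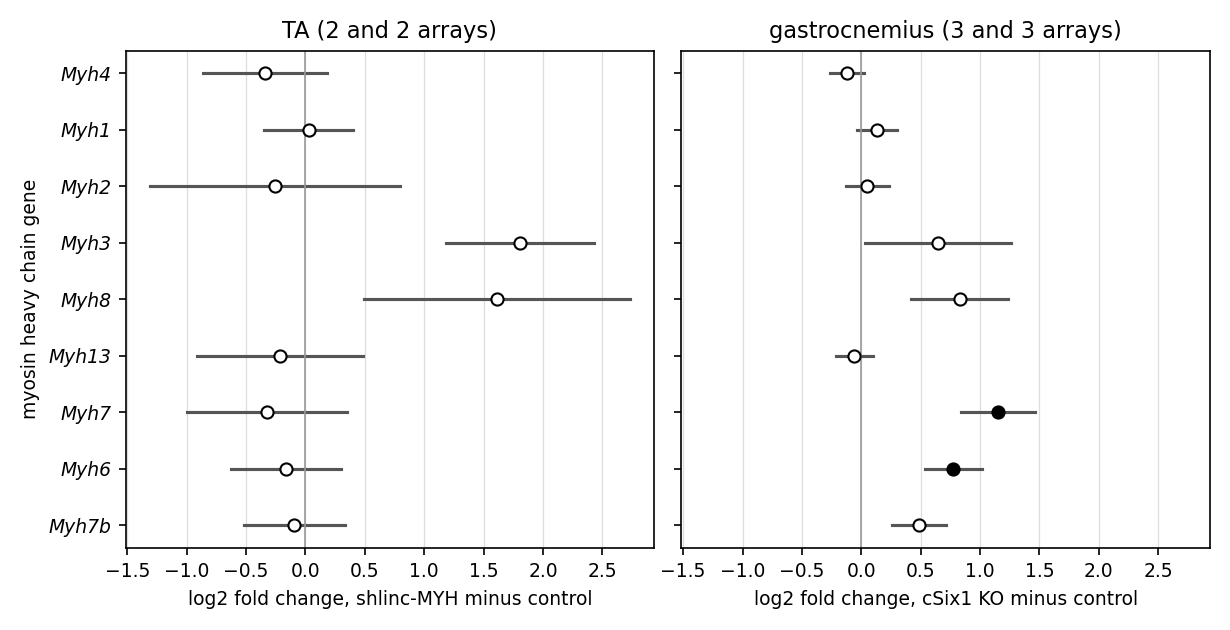
Log2 fold change of each myosin heavy chain gene (point) with its 95% confidence interval from limma (line), for shlinc-MYH minus control in TA (left) and cSix1 KO minus control in gastrocnemius (right). Filled points had an adjusted p under 0.05, which holds for Myh7 and Myh6 in gastrocnemius only.

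A difference between 2 signals of the same array does not move with the scaling of that array, so 5 genes were also followed relative to Myh4. The Myh4 signal was above 99.8% of probe sets in control arrays of both tissues. Whether it follows differences in RNA in full at that height was not tested. In TA, Myh3 minus Myh4 was -4.55 and -4.59 in shlinc-MYH and -6.57 and -6.88 in control arrays, a difference of 2.15. Myh8 minus Myh4 was -3.18 and -3.84 in shlinc-MYH and -5.26 and -5.67 in control arrays, a difference of 1.95. Both groups were apart on every array, with p = 0.333 by a two-sided exact permutation test, the smallest that 2 arrays against 2 can give. Relative to Myh4, Myh1, Myh2 and Myh7 overlapped in TA, with differences of 0.37, 0.08 and 0.01.

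In gastrocnemius, Myh7 minus Myh4 lay between -1.15 and -0.99 in cSix1 KO and between -2.56 and -2.12 in control arrays, a difference of 1.27. Myh8 moved by 0.95, Myh1 by 0.25 and Myh2 by 0.17 relative to Myh4, each with all cSix1 KO arrays above all controls. For these 4 the exact permutation test gave p = 0.1, the smallest that 3 arrays against 3 can give, and an adjusted p of 0.25 over the 10 ratios tested. Myh3 relative to Myh4 overlapped, with a difference of 0.76 (exact permutation p = 0.2, adjusted p = 0.4). Neither design can reach 0.05 with this test.

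**Figure D4:**
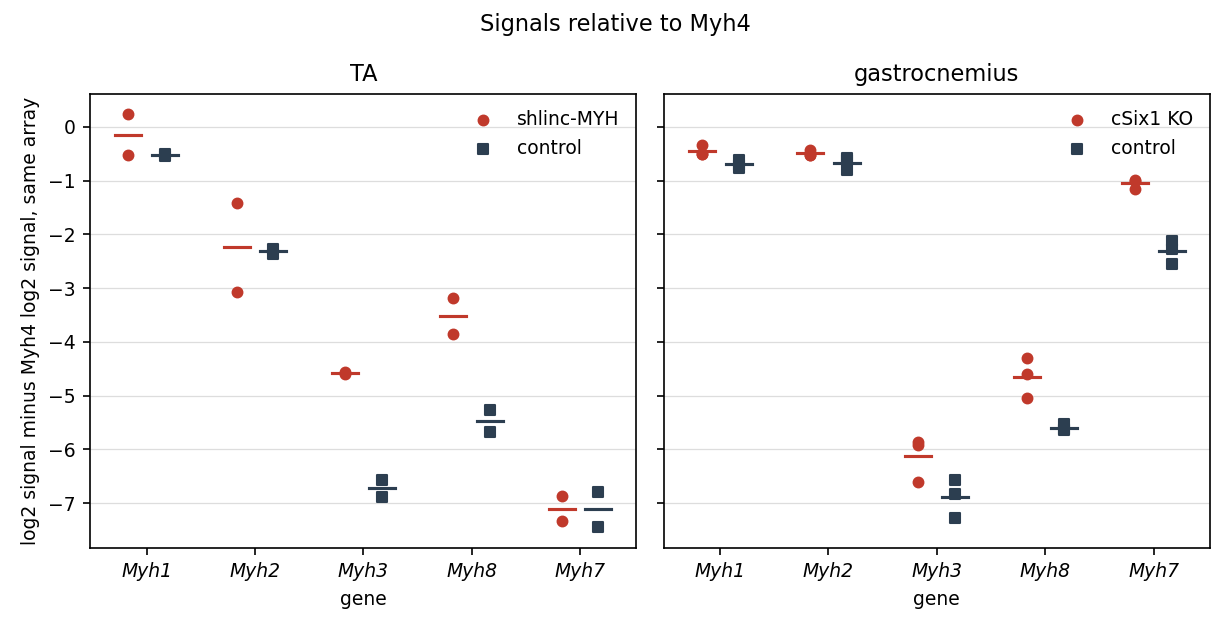
Log2 signal of 5 myosin genes minus the log2 signal of Myh4 on the same array, for TA (left, shlinc-MYH and control) and gastrocnemius (right, cSix1 KO and control), with 1 point per array and group means as short lines. In TA the groups are apart for Myh3 and Myh8, and in gastrocnemius for Myh1, Myh2, Myh8 and Myh7.

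The genes whose pattern over the arrays was nearest to a myosin gene that moved by at least 1 log2 unit were found by the root mean square difference of log2 signals, each taken relative to its control mean. Over the 6 gastrocnemius arrays, Myh7 was nearest to Ehd3 (0.0474 log2 units), Tnni1 (0.0819), which encodes slow troponin I, and Tpm3 (0.0945), which encodes slow tropomyosin. Over the 4 TA arrays, Myh3 was nearest to Sln (0.115), which encodes the calcium pump regulator sarcolipin, Tnni1 (0.207) and Orm2 (0.221). Myh8 was nearest to Orm2 (0.115), Igf2 (0.235) and Otud1 (0.237). These distances are descriptions over few arrays.

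Slow-fiber genes other than myosin heavy chains were higher beside Myh7 in gastrocnemius. Of 6 such genes, 3 rose (Tnnc1 by 1.40, Myl2 by 0.93 and Atp2a2 by 0.83 on the log2 scale), beside 0.18% of all probe sets. All 6 were above the controls on all cSix1 KO arrays, beside 9.71% of all probe sets, with a median of 1.00 against 0.01 over all probe sets. Tnnc1, slow troponin C, gave 12.09, 12.11 and 11.86 in cSix1 KO, against 10.80, 10.29 and 10.76 in control arrays. Control replicate 2, the lowest array for Myh7, was also the lowest control for Tnnc1, Tnnt1 and Tnni1.

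In TA, 4 of the same 6 genes had both shlinc-MYH arrays above both controls, beside 15.4% of all probe sets, with a median of 1.15 and 0 of 6 called (0% of all probe sets), while Myh7 overlapped. Tnnc1 gave 9.43 and 9.29 in shlinc-MYH and 8.06 and 5.74 in control TA, and Tnni1 gave 7.89 and 7.38 in shlinc-MYH and 6.18 and 6.02 in control TA. Control replicate 2 was the lower control for Tnnt1, Tnnc1 and Myl2 by more than 1 log2 unit. Myl2 and Myl3, the slow light chains, overlapped between the TA groups.

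**Figure D5:**
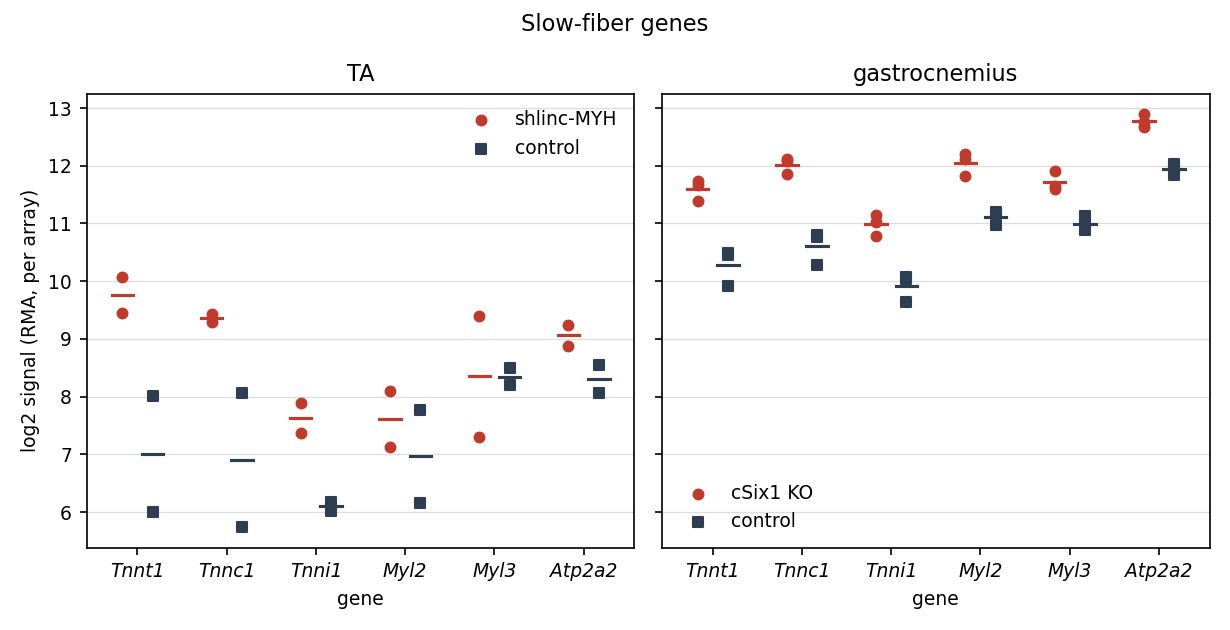
Log2 signal of 6 slow-fiber genes on every array, for TA (left, shlinc-MYH and control) and gastrocnemius (right, cSix1 KO and control), with 1 point per array and group means as short lines. All 6 genes are apart in gastrocnemius, and Tnnt1, Tnnc1, Tnni1 and Atp2a2 are apart in TA, where the control arrays of Tnnt1 and Tnnc1 differ by more than 2 log2 units.

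Genes listed as markers of extraocular or developing fibers were followed beside Myh3 and Myh8. In TA all 5 listed (Chrng, Chrna1, Ncam1, Myl4 and Tnnt2) had both shlinc-MYH arrays above both controls, beside 15.4% of all probe sets, with a median log2 fold change of 1.52 and 0 of 5 called (0% of all probe sets). Chrng, the fetal subunit of the acetylcholine receptor, gave 6.48 and 6.51 in shlinc-MYH and 5.33 and 5.03 in control TA. In gastrocnemius 3 of 5 were above the controls on all cSix1 KO arrays, beside 9.71% of all probe sets, and 1 of 5 was called, beside 0.18%. That gene, Chrng, rose, at 7.74, 7.79 and 7.27 in cSix1 KO against 6.54, 6.42 and 6.51 in control arrays (log2 fold change 1.11, adjusted p = 0.0486, limma). The median of the 5 was 0.91 there, and cSix1 KO replicate 3 was again the lowest of its group for Chrng, Chrna1, Myl4 and Tnnt2.

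Some markers of other cells also stood apart between the groups. In TA all 5 endothelial genes (Pecam1, Cdh5, Flt1, Kdr and Tek) were lower on both shlinc-MYH arrays, beside 22.1% of all probe sets, with mean signals per array of 6.44 to 7.15 in shlinc-MYH and 7.48 to 7.54 in control TA. Of 5 satellite cell and myoblast genes, 3 (Myod1, Myog and Mymk) were higher on both, beside 15.4% of all probe sets, with mean signals of 6.46 to 6.61 in shlinc-MYH and 5.75 to 6.05 in control TA. In gastrocnemius, 4 of 5 satellite cell and myoblast genes were above the controls on all cSix1 KO arrays, beside 9.71% of all probe sets, with mean signals of 7.65 to 8.07 in cSix1 KO and 7.32 to 7.41 in control arrays. Of 4 macrophage genes, 3 were above the controls there, with mean signals of 7.72 to 8.64 in cSix1 KO and 7.29 to 7.58 in control arrays. Of 4 fibroblast genes, 2 were, with a median log2 fold change of 0.41 over the 4. Both counts stand beside the same 9.71% of all probe sets. Of 4 smooth muscle genes, 2 were below the controls on all cSix1 KO arrays, beside 8.5% of all probe sets, and 0 were above. None of these markers was called, beside 0% of all probe sets in TA and 0.18% higher and 0.132% lower in gastrocnemius. Their part in the myosin differences was not tested.

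Partners of the heavy chains showed both directions in gastrocnemius. Of 8 light chains and light chain kinases, 1 rose (Myl2), beside 0.18% of all probe sets, and 2 fell (Mylk2 and Mylk4), beside 0.132%. In TA 0 were called, beside 0% of all probe sets. Mylk4 gave 11.11, 11.45 and 11.96 in cSix1 KO, against 13.18, 13.22 and 13.25 in control arrays (log2 fold change -1.71 ± 0.20, adjusted p = 0.0411, limma). Mylk2, the skeletal muscle light chain kinase, fell by 0.68 on the log2 scale (adjusted p = 0.0310). Mylk4 in TA gave 9.99 and 10.34 in shlinc-MYH, against 10.52 and 11.10 in control arrays, also apart, with a log2 fold change of -0.64 that was not called.

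No gene of 5 other class II myosins, 9 thick filament and M-band partners, 9 folding and turnover factors or 28 regulators measured was called in either comparison. That is near the shares of all probe sets called, 0% in TA and 0.18% higher and 0.132% lower in gastrocnemius. Their median log2 fold changes were 0.14, -0.01, 0.13 and -0.06 in TA and 0.03, -0.06, -0.09 and -0.02 in gastrocnemius. In the same order, 1, 1, 1 and 7 genes were above the controls on all cSix1 KO arrays, beside 9.71% of all probe sets. Below them were 1, 3, 3 and 6 genes, beside 8.5%. In TA, 3, 3, 4 and 6 genes had both shlinc-MYH arrays above both controls, beside 15.4%. Both arrays were below for 1, 2, 0 and 7 genes, beside 22.1%. Myh10, a nonmuscle myosin, gave 7.11 and 7.11 in shlinc-MYH, against 5.75 and 5.70 in control TA, a log2 fold change of 1.39 (adjusted p = 0.534, limma). Myog, which encodes the muscle transcription factor myogenin, gave 7.53, 7.16 and 6.89 in cSix1 KO, against 6.43, 6.36 and 6.32 in control gastrocnemius, apart on every array but not called (adjusted p = 0.115, limma). In TA it gave 7.19 and 7.48 in shlinc-MYH, against 6.31 and 5.16 in control arrays, also apart.

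The genes on both sides of the chromosome 11 cluster were followed to see whether differences ran beyond the myosins. The 3 nearest measured on the side of Myh3 were Sco1, Adprm and Tmem220, and those on the side of Myh13 were Gas7, Glp2r and Rcvrn. Of these 6, 0 were called in either comparison, beside 0% of all probe sets in TA and 0.18% higher and 0.132% lower in gastrocnemius. That is near those shares, and the median log2 fold changes were 0.05 in TA and 0.06 in gastrocnemius. In TA, 1 of the 6 had both shlinc-MYH arrays above both controls, beside 15.4% of all probe sets, and 1 had both below, beside 22.1%, which is close to those shares. In gastrocnemius 0 were apart above (9.71% of all probe sets) or below (8.5%).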

How the data were processed

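The members and gene lists were chosen with earlier results of these data known. Affymetrix gene arrays of mouse were hybridized with RNA of 10 muscle samples. The authors deposited log2 signals per probe set, made by RMA with Partek per the submitters' processing notes, without versions. Labels and methods differ on the amount of RNA and the labelling kit, and no raw scans were used here. Of 35556 probe sets, 21789 had 1 gene symbol in the platform annotation, 1621 several and 12146 none, and 21698 matched a RefSeq gene by Entrez number.

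Each tissue was fitted on its own with limma 3.58.1 (lmFit and eBayes, R 4.3.3) over all probe sets, with Benjamini-Hochberg adjustment. The number of arrays limits the precision. The named genes were all members with a probe set, and from each list called members and up to 4 with the largest changes. The difference between comparisons came from 1 fit of 4 group means. Ratios to Myh4 were tested by two-sided exact permutation (scipy 1.17.1). The scripts were tested on simulated data. Alternatives were quantile normalization, centring, a filter on dim probe sets, 1 probe set per gene, a trended and robust prior, the replicate number as a block, 1 fit of all arrays, the methods' t-test and leaving out each array. The level of the gene deleted in cSix1 KO is not reported here.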

Additional observations from a re-analysis of the deposited data

How the results depend on the processing

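With 2 arrays a group in TA and 3 in gastrocnemius, calls rested on few arrays. In TA, 0 probe sets were called, against 3 with 1 probe set per gene, 98 with all 10 arrays in 1 fit and 1 with the methods' t-test, and no myosin gene was called under any of these. In gastrocnemius, 111 probe sets were called, against 303 without dim probe sets, 347 with 1 probe set per gene, 249 with the trended and robust prior, 0 with the methods' t-test and 2 to 35 with 1 array left out. The 2 myosin genes called there became 1 after quantile normalization, 1 after centring, 4 with 1 probe set per gene, 0 with the methods' t-test and 0 to 1 with 1 array left out. At an unadjusted p under 0.05 the methods' t-test gave 2002 probe sets higher and 1938 lower there, and 947 and 1345 in TA. With the replicate block, 1 probe set and 0 myosin genes were called in gastrocnemius and 0 probe sets in TA. Same-numbered arrays did not deviate together in gastrocnemius (r = 0.15, -0.22 and -0.08). In TA they gave r = 0.13. With 2 arrays a group this value is the same for both numbers by construction, so it is 1 observation and cannot settle the pairing. With control plasmid in the opposite leg the same number may mark a mouse, which the labels do not state.

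Leaving out 1 TA array turned the sign of several log2 fold changes that were not called: Myh1 ran from -0.11 to 0.16, Myh2 from -0.84 to 0.32, Myh13 from -0.48 to 0.043, Myh7 from -0.68 to 0.022, Myh6 from -0.35 to 0.024 and Myh7b from -0.26 to 0.079. Relative to Myh4, Myh1 ran from -0.013 to 0.75, Myh2 from -0.75 to 0.91 and Myh7 from -0.31 to 0.34. Myh3 and Myh8 in TA kept a positive sign in all 12 alternatives, at 1.54 to 2.08 and 1.03 to 2.19. As their groups did not overlap, leaving out 1 array could not turn the sign. Without dim probe sets, 7 of 9 myosin genes were tested in TA and 8 of 9 in gastrocnemius.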
